A study of Cucumis sativus and Manihot esculenta and Brachypodium distachyon with 34 samples.

Results

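Some regions of leaf DNA matched small RNAs that were mostly 24 nt small interfering RNAs (siRNAs) and yet carried little methylation in the CHH context (mCHH, where H is A, C or T). These 24 nt siRNA regions below 5% mCHH were drawn from the mCHH regions of 6 angiosperm species. A region was taken if it was 50 to 1999 bp long, held at least 20 small RNA reads over 6 read lengths (20, 21, 22, 24, 25 and 26 nt), had at least 80% of those reads at 24 nt, and had an mCHH level below 5%. In all, 2286 of 809247 mCHH regions met these limits. *P. hallii* gave 1883 of them, *E. salsugineum* 319, *E. grandis* 71, *M. truncatula* 11 and *C. sativus* 2, and *R. communis* gave 0. The regions were thus chosen by measured values, namely level, length, reads and 24 nt share, and these 4 values are given as a description.

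The plants were named by accession, with no treatment and no age in the labels, and all material was leaf. They were cucumber (*C. sativus*, GY14), a eucalypt (*E. grandis*, BRAZUS1), the salt-tolerant crucifer *E. salsugineum* (Shandong), which lacks the CHG methyltransferase CMT3, the grass *P. hallii* (FIL2), the legume *M. truncatula* (F83) and castor bean (*R. communis*, with no accession given). Each species had 1 file, so there is no replicate error within a species, and regions are not replicates. The small RNA libraries differed in depth, from 2614647 mapped hits in *E. grandis* to 160311702 in *P. hallii*, and the same minimum of 20 reads is therefore a different minimum in each species. A hit is a place where a read matched without a mismatch, and a read that matches several places can be counted at each. Hits are called reads here. For *M. truncatula* the study's sample list names another accession than the label, and for *C. sativus* the files do not say which of the study's methylomes gave the regions.

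In the pathway of RNA-directed DNA methylation (RdDM), RNA polymerase IV makes short transcripts that are copied into double-stranded RNA and cut by DICER-LIKE 3 into 24 nt siRNAs. ARGONAUTE 4 carries the siRNAs to matching transcripts of RNA polymerase V, and the methyltransferase DRM2 then methylates cytosines there in every context. CHH sites have no mirrored cytosine on the other strand, so their methylation is placed again after each replication, by DRM2 or by CMT2, which works without siRNAs in histone-marked heterochromatin. A 24 nt siRNA region is thus a usual place of RdDM in leaves, and mCHH is its usual mark.

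Of the regions with the same length, reads and 24 nt share, 37.1% lay below 5% mCHH in *P. hallii* (1883 of 5070, 95% Wilson interval 35.8 to 38.5%) and 33.2% in *E. grandis* (71 of 214, 27.2 to 39.7%). The share was 2.94% in *E. salsugineum* (319 of 10838, 2.64 to 3.28%), 0.317% in *C. sativus* (2 of 631, 0.0870 to 1.148%) and 0.0608% in *M. truncatula* (11 of 18100, 0.0339 to 0.109%). In *R. communis* none of 1359 regions lay below 5%, which allows a share of up to 0.221% (3 counts of the total, Wilson upper limit 0.282%). The intervals cover counting error only. Among all regions of that length with at least 20 reads, whatever their read lengths, the share below 5% mCHH was 40.1% in *P. hallii*, 32.8% in *E. grandis*, 2.05% in *E. salsugineum*, 0.536% in *C. sativus*, 0.133% in *M. truncatula* and 0.0911% in *R. communis*. The level below 5% is a limit of the selection, so these shares are set beside each other without a test. Without any read, 40.2% of the *P. hallii* regions, 29.9% of the *E. grandis* regions and 45.7% of the *E. salsugineum* regions of that length lay below 5%. With 1 to 19 reads the shares were 55.2%, 33.3% and 10.8% in the same order. In *M. truncatula*, *C. sativus* and *R. communis* they were 2.15%, 1.31% and 0.0414% without a read. With 1 to 19 reads these 3 had 0.789%, 1.13% and 0.0175%.

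The regions were a small part of what each library put on mCHH regions. They held 271231 reads of 24 nt in *P. hallii*, which was 1.31% of the 24 nt reads on all its mCHH regions, over 0.947% of their summed length. In *E. grandis* they held 2922 reads of 24 nt, or 7.59% of all such reads, over 0.118% of the length. They held 24335 such reads (0.0623%) in *E. salsugineum*, 535 in *M. truncatula* and 75 in *C. sativus*.

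Within the limit, levels were spread up to 5% rather than gathered near 0. In *P. hallii* the median level was 3.63% (middle 50% of regions 3.02 to 4.26%, lowest 0.644%), with 45 regions from 1 to 2% and 3 below 1%. In *E. grandis* the median was 3.47% (lowest 1.64%). In *E. salsugineum* levels sat nearer the limit, with a median of 4.19% (3.66 to 4.62%, lowest 1.22%), and 194 of the 319 regions were at 4% or more. In *M. truncatula* the median was 4.34% and 7 of 11 regions were at 4% or more. Every region in the files has called methylated cytosines, so none of these regions is without mCHH. The read coverage behind each level is unknown, as the files hold no site or read counts.

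The regions nearest to the limit on either side were picked by their level, so their likeness in level is built in. In *P. hallii* the last region inside, at positions 122524341 to 122525698, had 4.995% mCHH and 30 reads of 24 nt, and the first outside, 80213530 to 80213735, had 5% and 68 reads. In *E. salsugineum* the last inside (scaffold_7, 13934314 to 13934534) had 4.996% and 31 reads, and the first outside (scaffold_1, 17039347 to 17039797) had 5% and 47. In *E. grandis* the pair stood at 4.96% (scaffold_10, 10205173 to 10205444, 73 reads) and 5.16% (scaffold_6, 20664777 to 20665448, 33 reads). The *M. truncatula* pair stood at 4.87% (chromosome 6, 26391516 to 26391822, 23 reads) and 5% (chromosome 3, 29225892 to 29226167, 20 reads), and the *C. sativus* pair at 4.82% (197871981 to 197872400, 24 reads) and 5.49% (138795588 to 138796036, 21 reads). The lowest level of any such region in *R. communis* was 7.48% (223820388 to 223820632, 19 reads). Positions are those of the files, and in *P. hallii*, *C. sativus* and *R. communis* they run along 1 sequence named 1. The files name no gene, and no annotation of these assemblies was used, so it was not determined whether a region is in a gene, an intron or a transposon.

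**Figure D1:**
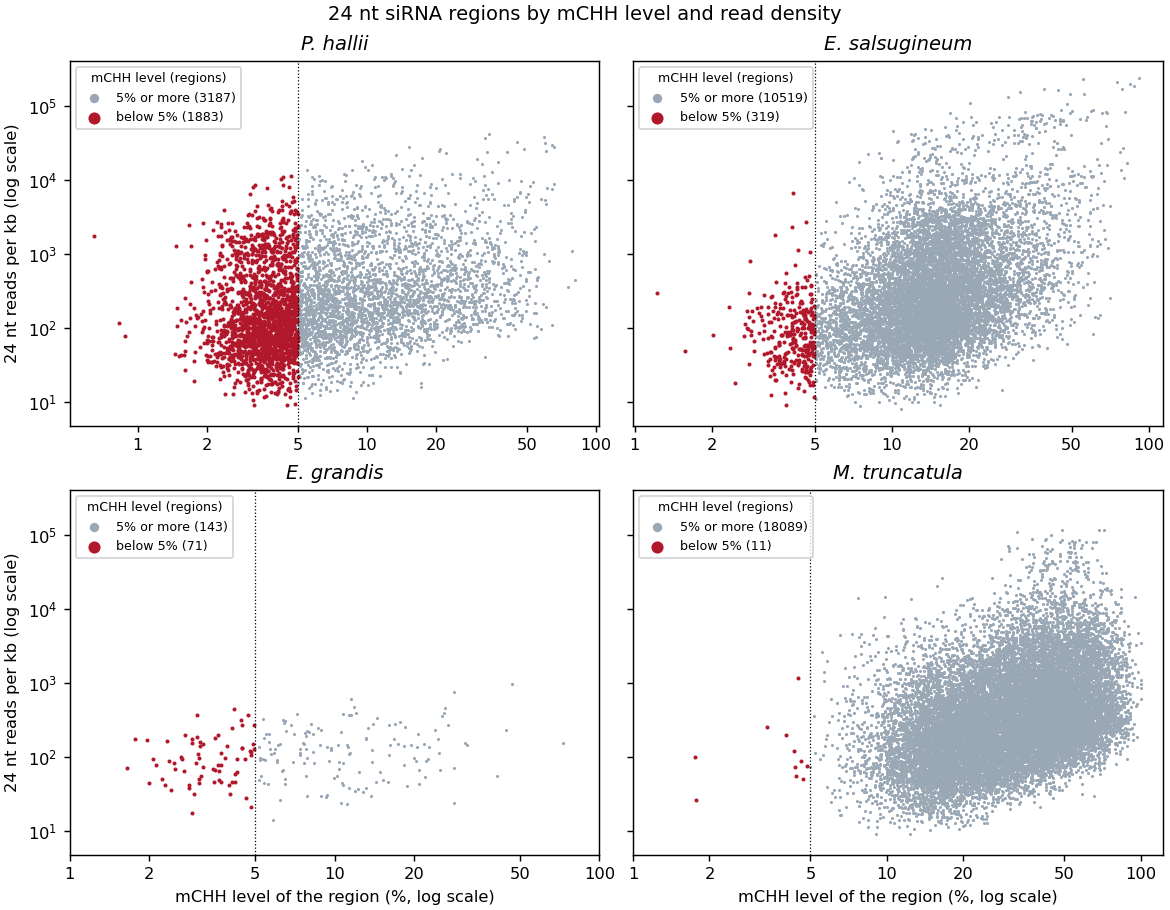
Reads of 24 nt per kb of region (log scale) against the mCHH level of the region (%, log scale) for all 24 nt siRNA regions of 4 species, with regions below 5% in red, those of 5% or more in grey, and the number of each in the key. The regions below 5% are 1883 of 5070 points in *P. hallii* and only 11 of 18100 in *M. truncatula*, and the densest regions of *E. salsugineum* and *M. truncatula* all lie to the right of the dotted line at 5%.

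The regions below 5% mCHH were longer than the 24 nt siRNA regions of 5% or more. Median lengths were 355 bp in *P. hallii*, where regions of 5% or more had 225 bp, and 504 and 349 bp in *E. salsugineum*, 365 and 278 bp in *E. grandis*, and 335 and 192 bp in *M. truncatula*. The ratio of medians ran from 1.31 in *E. grandis* to 1.74 in *M. truncatula*, above 1 in each of the 4 species that have at least 10 such regions. Against regions of 5 to 15% mCHH alone, the *M. truncatula* ratio turned to 0.929. Length and reads were among the limits of the selection, so no test is given of length or density. In *P. hallii* 1.65% of the regions below 5% were shorter than 100 bp and 14.7% were of 100 to 199 bp, against 13.8% and 29.1% of those of 5% or more. The minimum of 20 reads is per region and not per kb, so a long region passes it with a lower density than a short one.

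Reads of 24 nt lay less densely in the regions below 5% mCHH. The median was 120 reads per kb against 248 in *P. hallii*, 80.7 against 245 in *E. salsugineum*, 93.2 against 129 in *E. grandis* and 88.4 against 318 in *M. truncatula*. The ratio of medians was 0.485, 0.329, 0.722 and 0.278, below 1 in all 4. It was 0.643 in *M. truncatula* against regions of 5 to 15% alone and, by means in place of medians, 0.0915 in *E. salsugineum* and 0.159 in *M. truncatula*. The distributions overlapped in every species. In *P. hallii* the middle 50% of regions ran from 59.6 to 339 reads per kb below 5% mCHH and from 116 to 727 at 5% or more. Counted per region, the median was 31 reads of 24 nt in both sets of *E. grandis*. In *P. hallii* it was 37 against 50, in *M. truncatula* 25 against 56 and in *E. salsugineum* 36 against 78.

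In *E. salsugineum* 24 nt siRNA regions with more reads less often had little mCHH. The share below 5% was 5.30% of regions with 20 to 49 reads, 3.49% with 50 to 99, 2.24% with 100 to 199, 0.818% with 200 to 499, 0.360% with 500 to 999 and 0.237% with 1000 or more. Only 2 of 844 *E. salsugineum* regions with 1000 reads or more lay below 5%. In *E. grandis* no fall was seen over its smaller range, with 32.4% at 20 to 49 reads, 35.7% at 50 to 99 and 31.6% (6 of 19) at 100 to 199. In *M. truncatula* 10 of the 11 regions had under 100 reads, with 1 of 2502 below 5% at 200 to 499 reads and 0 of 824 at 500 to 999, which allows a share of up to 0.364% (3 counts of the total, Wilson upper limit 0.464%).

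*P. hallii* did not follow the *E. salsugineum* order. Its share fell from 42.6% at 20 to 49 reads to 34.4%, 30.7% and 22.4% at 200 to 499 reads, stood at 42.8% at 500 to 999 reads (191 of 446, 38.3 to 47.5%), and was 23.6% at 1000 or more (49 of 208, 18.3 to 29.8%). Reads and level both took part in the selection, and these shares are a description of 1 library.

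**Figure D2:**
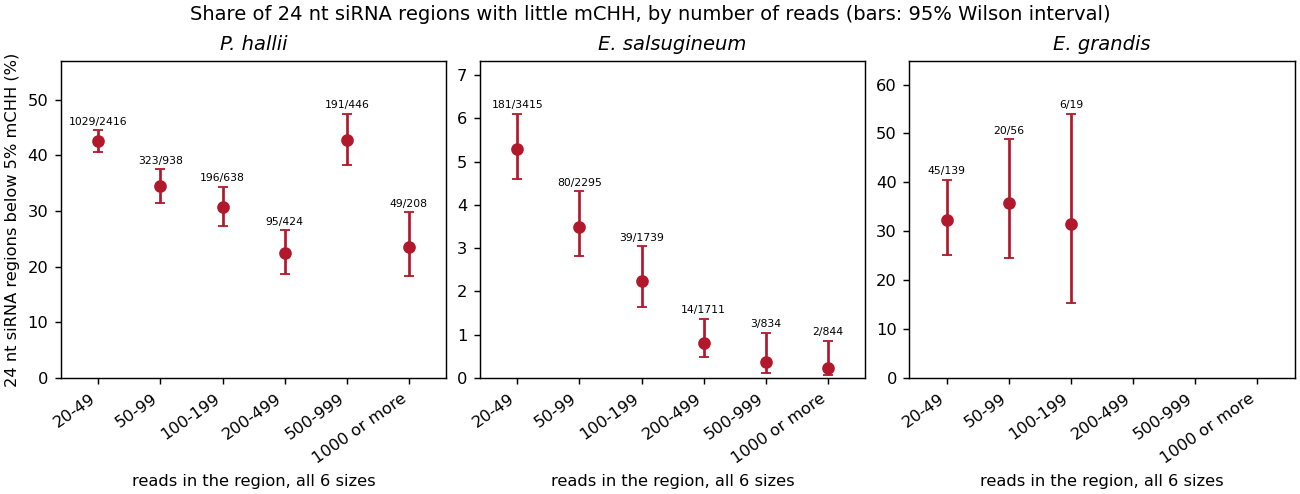
Share (%) of 24 nt siRNA regions that lie below 5% mCHH, by the number of reads in the region, in 3 species, with 95% Wilson intervals for counting error and the counts printed above each point (each panel has its own vertical scale). The share falls from class to class in *E. salsugineum*, from 5.30% to 0.237%, while *P. hallii* has another high point of 42.8% at 500 to 999 reads and *E. grandis* has no region of 200 reads or more.

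The high share at 500 to 999 reads went with a rise in the number of *P. hallii* regions. Between 200 and 500 reads of 24 nt the number of regions below 5% mCHH thinned out, with 40 at 200 to 299, 21 at 300 to 399 and 17 at 400 to 499. It then rose to 48 at 500 to 599, 78 at 600 to 699 and 49 at 700 to 799, and dropped to 17 at 800 to 899 and 11 at 900 to 999. The *P. hallii* regions of 5% or more had a rise at the same place, with 52 at 400 to 499, 53 at 500 to 599, 99 at 600 to 699, 52 at 700 to 799 and 38 at 800 to 899. A split at 500 reads, chosen after these values were seen, put 231 of the 1883 regions on the upper side. Those 231 held 64.5% of the 24 nt reads of the 1883.

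The upper group held regions of all lengths. The median was 653.5 reads of 24 nt in the 60 regions under 300 bp, 674 in the 103 regions of 300 to 599 bp and 737 in the 68 regions of 600 bp or more. Per kb the same medians were 3235, 1695 and 872. As the group was formed on the number of reads, the likeness of these medians is in part built in. The middle 50% of the 231 regions held 609.5 to 790 reads of 24 nt, 17 to 38 of 21 nt and 48 to 99.5 of 22 nt. Their mCHH level, with a median of 3.51%, was near the 3.65% of the other 1652 regions, and they were somewhat longer (415 bp against 346.5 bp). The files hold no read sequences, so whether regions of this group matched the same siRNAs was not tested.

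**Figure D3:**
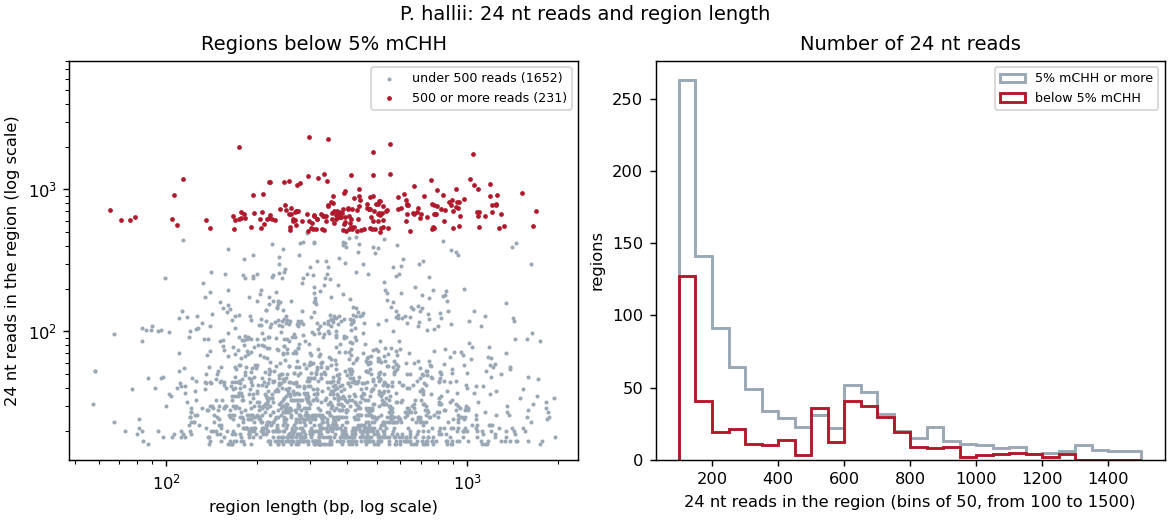
*P. hallii* regions. Left, reads of 24 nt against region length (bp), both on log scales, for the 1883 regions below 5% mCHH, split at 500 reads; right, the number of regions by reads of 24 nt in bins of 50, below 5% mCHH (red) and at 5% or more (grey). The 231 red points of the left panel, bounded below by the split, run from 65 to 1691 bp, and both sets of the right panel have a rise between 500 and 800 reads.

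A close run of such regions in *P. hallii* held regions on both sides of the split. Between positions 250262556 and 250272539, a stretch that holds 16 mCHH regions, 6 were 24 nt siRNA regions below 5% mCHH, the most within 10 kb in any species. Of these, 3 had nearly equal profiles. The region at 250263902 to 250264395 (493 bp, 3.50% mCHH) held 523 reads of 24 nt with 35 of 21 nt and 66 of 22 nt. The region at 250270534 to 250271061 (527 bp, 4.57%) held 543, 35 and 71, and that at 250271995 to 250272539 (544 bp, 2.59%) held 532, 34 and 65. Of the other 3, the regions at 250262556 to 250262866 and 250268709 to 250269251 held 160 and 166 reads of 24 nt, and that at 250268091 to 250268564 held 29. The nearest neighbours of the 3 alike regions held 1, 1 and 28 reads of 24 nt at 3.31%, 2.78% and 3.10% mCHH.

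Exact copies of a profile were rare. Only 4 of the *P. hallii* regions (0.212%) shared their length and all 6 read counts with another region under the same limits, and they had 21 to 61 reads. The share was 0.439% at 5% mCHH or more in *P. hallii*, and none of the regions below 5% in *E. salsugineum*, *E. grandis* or *M. truncatula* had such a copy, against 0.551% and 0.691% at 5% or more in *E. salsugineum* and *M. truncatula*. With so few regions below 5%, a share of that size would give few copies or none, and no difference can be read from these values. Runs were shorter elsewhere, with 3 regions in *E. salsugineum* (scaffold_18, 2872125 to 2876708, 38 to 188 reads of 24 nt) and 2 in *E. grandis* (scaffold_1, 22055747 to 22057140, 27 and 28 reads).

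The single regions at the ends of the range show how different these places were. Counts are not scaled to the depth of each library, so they rank regions within a species only. In *E. salsugineum* the most 24 nt reads lay on scaffold_18 at 1135809 to 1136500 (691 bp, 4.13% mCHH). That region had 4536 reads of 24 nt, 656 of 22 nt and 140 of 21 nt of 5476 in all. It alone held 18.6% of the 24 nt reads of the 319 regions of that species. Its nearest neighbour, 172 bp away and 90 bp long, had 127 reads of 24 nt and 7.26% mCHH. The lowest level in *E. salsugineum* was 1.22% (scaffold_3, 11100340 to 11100607, 267 bp) with 80 reads of 24 nt, and the longest region (scaffold_11, 5035005 to 5036992, 1987 bp) just met the minimum with 18 of 20 reads at 24 nt.

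In *P. hallii* the most reads were at 524098158 to 524098457, where 299 bp held 2329 reads of 24 nt of 2862 at 3.68% mCHH. The densest was at 332289809 to 332289984, where 175 bp held 2000 reads of 24 nt (11429 per kb) at 4.67%, and the nearest region 250 bp away held 0 reads of 24 nt at 2.99%. The lowest level of any of the 2286 regions was 0.644%, at 405699084 to 405699424 (340 bp), with 598 reads of 24 nt, 71 of 22 nt and 31 of 21 nt, a count in the upper group above. Its neighbour, 570 bp away, held 777 reads of 24 nt at 5.51% mCHH. The longest, at 71277540 to 71279497 (1957 bp), had 18 reads of 24 nt and 4.49%.

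*E. grandis* had the fewest mapped hits, 2614647, so its counts cannot be set beside those of deeper libraries. The most were 112 reads of 24 nt of 125 on scaffold_9 at 7028462 to 7029642 (1180 bp, 4.30% mCHH). The densest had 104 of 127 on scaffold_2 at 41671020 to 41671255 (235 bp, 4.18%), and both had a nearest neighbour with 0 reads. The lowest level was 1.64% on scaffold_7 at 14333950 to 14334231, with 20 reads of 24 nt, and the longest, on scaffold_3 at 44698249 to 44699619 (1370 bp), had 63 reads at 3.72%.

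In *M. truncatula* 1 region stood out, on chromosome 7 at 34310549 to 34310741 (192 bp), with 222 reads of 24 nt of 274 at 4.46% mCHH. It held 41.5% of the 24 nt reads of the 11 regions. Its nearest neighbour, 159 bp away, held 361 reads of 24 nt at 23.4% mCHH. The other 10 held 18 to 55 reads of 24 nt. The lowest levels were 1.76% (chromosome 8, 9230609 to 9230827, 22 reads of 24 nt) and 1.77% (scaffold0212, 458 to 2107, 44 reads), and the latter was also the longest, at 1649 bp. The 2 *C. sativus* regions held 51 reads of 24 nt of 63 (11705504 to 11706174, 4.17%) and 24 of 30 (197871981 to 197872400, 4.82%), and their neighbours were at 5.19% and 5.98%.

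The nearest regions were less methylated beside regions below 5% than beside those of 5% or more. The nearest other mCHH region had a median level of 4.31% beside regions below 5% and 8.32% beside those of 5% or more in *P. hallii*, 7.49% and 14.0% in *E. salsugineum*, 4.52% and 10.3% in *E. grandis*, and 15.95% and 26.3% in *M. truncatula*. All 4 species had the lower level below 5%, by 4.01 to 10.3 percentage points. The exact two-sided sign test over 4 species gave p = 0.125, the smallest it can give, so no comparison over species here can pass 0.05. Against regions of 5 to 15% alone, the difference in *M. truncatula* was -1.56 points, and against regions above 25% it was -11.0 points in *P. hallii*, -12.7 in *E. salsugineum* and -14.5 in *E. grandis*. The nearest region lay itself below 5% for 60.5% of the regions in *P. hallii* against 25.9% of those of 5% or more, for 63.4% against 22.4% in *E. grandis*, and for 22.6% against 3.37% in *E. salsugineum*. Where there was a region on each side, both lay below 5% for 36.2% in *P. hallii*, 38.6% in *E. grandis* and 8.18% in *E. salsugineum*.

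Regions below 5% with under 80% of their reads at 24 nt were compared in the same way. Their median 24 nt share was 55.3% in *P. hallii*, 69.3% in *E. salsugineum* and 67.1% in *E. grandis*. It was 21.2% in *M. truncatula*, 16.8% in *C. sativus* and 5.02% in *R. communis*. In the pooled reads of these *E. grandis* regions, 57.6% were of 21 nt and 13.6% of 24 nt. Another set was formed of regions of the same length limits with at least 20 reads, under 80% of them at 24 nt, and a level below 5%, which gave 40287 regions. Their median lengths were 393 bp in *P. hallii*, 502 bp in *E. salsugineum*, 336 bp in *E. grandis* and 326.5 bp in *M. truncatula*. Each was nearer to the median of the 24 nt siRNA regions below 5% than to that at 5% or more. In the same order, their median 24 nt density was 90.2, 80.2, 55.0 and 31.1 reads per kb. These densities too were below the medians at 5% mCHH or more. The nearest region of this set had a median level of 4.36% in *P. hallii*, 7.19% in *E. salsugineum*, 4.59% in *E. grandis* and 17.0% in *M. truncatula*. In each species this was nearer to the value beside the 24 nt siRNA regions below 5% than to that beside the 24 nt siRNA regions of 5% or more. In *M. truncatula*, however, 34.6% of the regions with under 80% at 24 nt had a nearest region above 25%, and few nearest regions of either set lay below 5% (9.62% and 1 of 11).

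**Figure D4:**
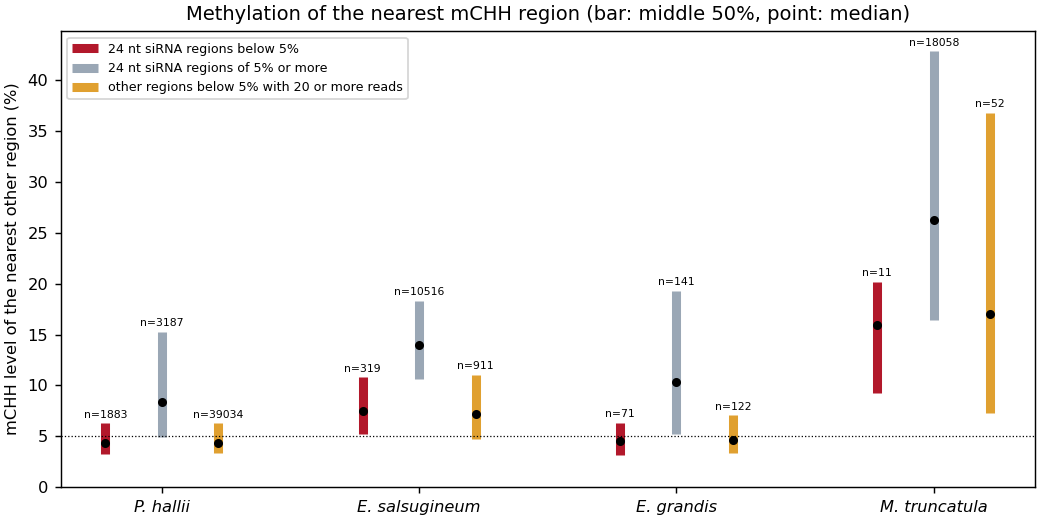
mCHH level (%) of the nearest other mCHH region in 4 species, for 24 nt siRNA regions below 5% (red), 24 nt siRNA regions of 5% or more (grey) and other regions below 5% with at least 20 reads (yellow), with the middle 50% as a bar, the median as a point and the number of regions above. In each species both sets below 5% have lower neighbours than the grey set, with medians of 4.31% and 4.36% against 8.32% in *P. hallii*.

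A nearest region above 25% mCHH was uncommon. In *P. hallii* the nearest region was above 25% for 29 of 1883 regions (1.54%), against 11.7% of the regions of 5% or more, in *E. salsugineum* for 15 of 319 (4.70%) against 10.7%, and in *E. grandis* for 3 of 71 against 22 of 143. In *M. truncatula*, where 52.3% of the regions of 5% or more had such a neighbour, it was 1 of 11. Among the 29, and chosen after the values were seen, the region at 452526715 to 452526851 in *P. hallii* (136 bp, 4.28%) held 608 reads of 24 nt, and its neighbour 901 bp away was at 50% mCHH with 104 reads of 24 nt on 37 bp. Counted on either side, where both sides had a region, 3.88% in *P. hallii* had one above 25%, against 23.3% of the regions of 5% or more. It was 7.55% in *E. salsugineum* (against 18.6%), 6 of 70 in *E. grandis* (33 of 138) and 4 of 10 in *M. truncatula* (74.8%). For other regions below 5% with at least 20 reads, the nearest was above 25% for 1.14% in *P. hallii*, 3.73% in *E. salsugineum* and 0.806% in *E. grandis*. On either side, these other regions had 3.09% in *P. hallii*, 7.63% in *E. salsugineum*, 6 of 116 in *E. grandis* and 61.5% in *M. truncatula*.

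Distances to the nearest region were shorter in 3 of 4 species. The median gap was 267 bp below 5% and 409 bp at 5% or more in *P. hallii*, 193 and 226 bp in *E. salsugineum* and 583 and 634 bp in *E. grandis*, and longer, 549 and 481 bp, for the 11 regions of *M. truncatula* (exact two-sided sign test, p = 0.625). Another region lay within 200 bp of 34.8% of the regions below 5% in *P. hallii* (26.5% at 5% or more), 51.1% in *E. salsugineum* (41.6%), 15.5% in *E. grandis* (11.9%) and 2 of 11 in *M. truncatula* (18.8%), with p = 0.625 in the exact sign test. No gap in the files was under 127 bp, as nearby windows had been merged.

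The nearest region often had far fewer 24 nt reads. It had under 1/10 of the 24 nt density for 37.5% of the regions in *P. hallii*, 85.9% in *E. grandis*, where 7888 of 103724 mCHH regions have a 24 nt read, and 12.2% in *E. salsugineum*. The shares at 5% mCHH or more were close to these in *P. hallii* (37.7%) and *E. grandis* (83.2%), and 17.5% in *E. salsugineum*. The nearest region was denser in 24 nt reads than the region itself for 19.8% in *P. hallii*, 2.82% in *E. grandis* and 48.9% in *E. salsugineum*, against 19.6%, 2.10% and 32.9% at 5% or more. The nearest region was itself a 24 nt siRNA region, at any level, for 56 of 1883 regions in *P. hallii* (2.97%, against 3.51% at 5% or more) and 47 of 319 in *E. salsugineum* (14.7% against 14.6%).

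The other read lengths in these regions looked like those of more methylated 24 nt siRNA regions. Reads of 22 nt, the next most common length, made up 9.42% of the reads in *P. hallii*, 10.7% in *E. salsugineum*, 5.13% in *E. grandis* and 6.53% in *M. truncatula*. Reads of 21 nt, the length of most microRNAs, made up 3.34%, 2.23%, 4.11% and 4.62%. No interval is given for these shares, as a read can be counted at several places. Together 21 and 22 nt made up 84.7% of the reads that were not of 24 nt in *P. hallii* (83.6% at 5% mCHH or more), 82.8% (84.6%) in *E. salsugineum*, 71.4% (71.3%) in *E. grandis* and 75.3% (75.7%) in *M. truncatula*. The differences, from -1.76 to 1.08 percentage points, went up in 2 species and down in 2. No test is given, as these reads took part in the selection. The *M. truncatula* value rests on 1 region, and without the region of 222 reads on chromosome 7 it was 58.5%, with 21 nt (34.1%) then above 22 nt (24.4%). The largest shift within the pair was in *E. salsugineum*, where 21 nt made up 14.3% of the other reads below 5% mCHH and 20.4% at 5% or more. Without the region of 4536 reads the value below 5% was 14.1%. Only 13 regions in *P. hallii* and 1 in *E. salsugineum* had 24 nt reads and no other.

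**Figure D5:**
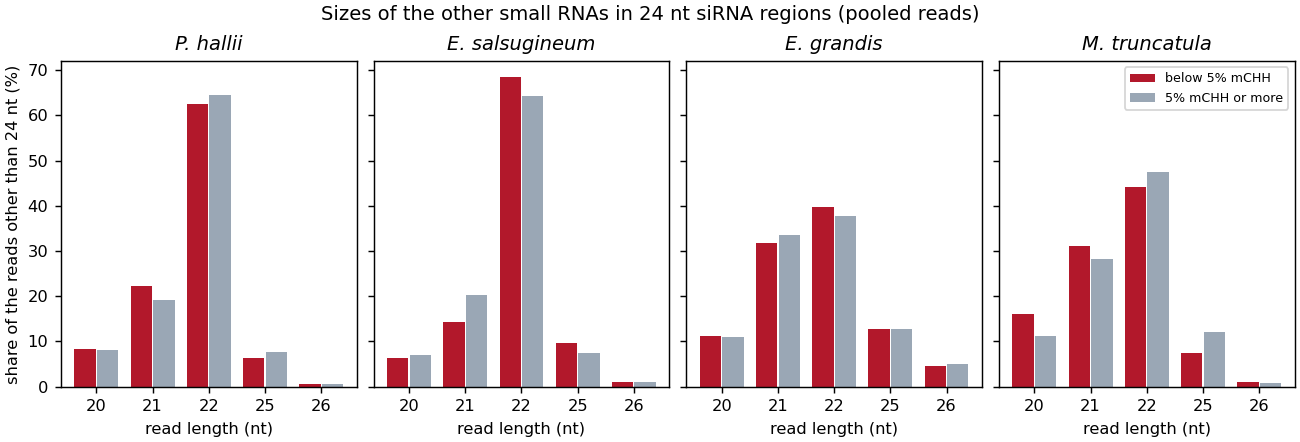
Share (%) of each read length among the reads other than 24 nt, pooled over the regions of 4 species, for 24 nt siRNA regions below 5% mCHH (red) and of 5% or more (grey). Reads of 22 nt lead in both sets of every species, though in *M. truncatula* the red lead rests on 1 region, and 21 nt is lower in red than in grey in *E. salsugineum* (14.3% against 20.4%).

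Along the genome the regions were spread widely. In *P. hallii*, in 20 blocks of equal length along the joined sequence, the share of 24 nt siRNA regions below 5% ran from 22.2% in block 2 to 51.4% in block 16, and was 43.4% or more in each of the last 7 blocks and 39.2% or less in each of blocks 1 to 11, with 48.0% in block 12 and 31.6% in block 13 between them. The regions below 5% numbered 5.33 to 10.01 per 1000 mCHH regions, and those of 5% or more 8.03 to 18.7. As the joined order of scaffolds is not known here, a block is not a part of a chromosome. In *E. salsugineum* scaffold_7 held the most, 45 beside 711 of 5% or more (5.95%), against 11 beside 606 (1.78%) on scaffold_14. In *E. grandis* the counts were small, with 12 beside 7 on scaffold_7 and 2 beside 14 on scaffold_6. The 11 *M. truncatula* regions lay on 6 chromosomes and 1 scaffold.

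Regions that missed a single limit put the 2286 in context. In *P. hallii* 13949 regions had 1 to 19 reads and met the other limits, 39034 had under 80% of their reads at 24 nt, and 17 were 2000 bp or longer or under 50 bp. In *E. salsugineum* the upper length limit kept out a region on scaffold_1 at 8520974 to 8522984 (2010 bp) that held 3354 reads of 24 nt of 3700 at 0.537% mCHH, a lower level than any region inside the limits, a case chosen after its values were seen. Among regions with at least 20 reads, the share below 5% mCHH in *P. hallii* neither rose nor fell steadily with the 24 nt share. It was 47.7% where 24 nt made up 20 to 40% of reads, 34.8% at 60 to 80%, 36.6% at 80 to 90% and 40.8% at 90% or more. In *E. salsugineum* it was lowest, 1.64%, at 60 to 80% and was 4.91% at 90% or more (51 of 1038).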

How the data were processed

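Leaf mCHH regions with small RNA values were analysed for 6 species, with 1 file per species. Per the study's methods, the authors aligned MethylC-seq reads with bowtie, kept windows of 25 bp that held a methylated cytosine, merged nearby windows and kept regions with at least 5 methylated cytosines. The mCHH level of each region was deposited as a fraction, printed here in percent. The UEA toolkit trimmed the small RNA reads, PatMan placed them with no mismatch allowed, and BedTools gave their overlap with the regions. The authors deposited them per length as a fraction of all mapped hits, with empty cells for regions without reads. There are no values for 23 nt.

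Each fraction was divided by the smallest value of its file, which gave whole reads for 100% of values (tolerance 0.01), and empty cells were taken as 0. Length is end minus start. Whether positions count from 0 or 1 is not stated, and the genome versions are not given in the files. The mapped hits, inferred as the inverse of that smallest value, numbered 160311702 (*P. hallii*), 132271615 (*E. salsugineum*), 73438007 (*M. truncatula*), 27088740 (*R. communis*), 17979983 (*C. sativus*) and 2614647 (*E. grandis*), and the study lists another number for *R. communis*. Regions below 5% mCHH were compared with those of 5% or more under the same limits, by medians, and over the 4 species with at least 10 regions by an exact two-sided sign test. Such a test was planned for length, density and profile copies too but is not given, as these values took part in the selection. Analyses used pandas 2.3.3 and NumPy 2.4.6 under Python 3.11.15, tests SciPy 1.17.1 and plots Matplotlib 3.10.9, and the selection and its measures were tested on simulated data. The limits, the measures and the rule for named regions were chosen with earlier results of these data known. Named are, per species, the region with most 24 nt reads, most per kb, greatest length, lowest level, and levels nearest to 5% on both sides, every region of a species with 5 or fewer, and the closest run within 10 kb. Further regions named were chosen after their values were seen. Alternatives changed the read minimum, the 24 nt share, the level, the compared regions, the median and the number of regions a species needs, and regions under 500 reads of 24 nt were added after the data were seen. FPKM files were not used. No genome of these versions was used, so no sequences are printed.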

Additional observations from a re-analysis of the deposited data

Results flagged for a closer look

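In 3 of the 7 comparisons over species, the species did not all go the same way, and the differences between species were not tested. The median gap to the nearest region was longer below 5% mCHH in *M. truncatula*, with a ratio of 1.14 over 11 regions, and shorter in *P. hallii* (0.653), *E. salsugineum* (0.854) and *E. grandis* (0.920). The share of regions with another region within 200 bp was lower by 0.581 percentage points in *M. truncatula* (-0.581), where it rests on 2 of 11 regions, and higher in the other 3 species, by 3.60 to 9.54 points. The share of 21 and 22 nt among the reads other than 24 nt was higher by 0.143 points in *E. grandis* and by 1.08 points in *P. hallii*, and lower in *E. salsugineum* (-1.76) and *M. truncatula* (-0.463, a value that rests on 1 of its 11 regions).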

How the results depend on the processing

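The direction of length, 24 nt density and neighbour level over species did not change in any alternative run, apart from the length in 1 species named below. Over all settings, 62 counts of species stayed the same or nearly so, 2 moved and 3 turned, while of the values of single species 183 stayed, 50 moved and 14 turned. These numbers include the setting of at least 5 regions per species. It left the same 4 species, so its values were the same by construction and tell nothing of stability. Fewer copies of a read profile below 5% were found in 1 of 3 species with at least 50 reads and in 1 of 3 with a 24 nt share of 90%. The share of 21 and 22 nt was higher in 1 species of 5 with 10 reads, 1 of 3 with a share of 90% and 1 of 4 against regions of 5 to 15%. In *E. grandis* its difference turned to -0.610, -6.88 and -0.249 points in these settings. Single values that turned were the ratio of lengths in *M. truncatula* against regions of 5 to 15% (0.929), and the ratio of gaps against regions above 25% in *E. grandis* (1.05) and *M. truncatula* (0.968), and in *E. salsugineum* with levels below 3% (1.49) and by means (1.10). The share within 200 bp turned to -18.8 points in *E. salsugineum* with levels below 3%, and to 4.25 points with 10 reads and 3.02 points against regions above 25% in *M. truncatula*. Profile copies in *P. hallii* turned to 0.123 points with 50 reads, 1.15 with 10 reads and 0.212 against regions above 25%. The cause was not tested. With 50 reads, a share of 90% or levels below 3%, *M. truncatula* had too few regions to be counted. Leaving out regions of 500 reads of 24 nt or more, chosen after the data were seen, turned no result, and moved the 21 and 22 nt difference to 0.120 points in *P. hallii*, -0.665 in *E. salsugineum* and -0.889 in *M. truncatula*. No paired analysis was possible because each species has 1 file and so no replicate numbers to pair, although each comparison was made within a species. The level of each region has unknown coverage, and *E. grandis* had the shallowest small RNA library.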
